A study of Rattus norvegicus with 23 samples.

Results

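Aged rats given the FKBP1b vector late in life (short-term group, ST) were set against aged rats given an eGFP control vector (aged controls, AC), with 6 ST arrays and 5 AC arrays, 11 of the 23 arrays in the series. The study's methods describe 6 arrays for each group, but only 5 AC arrays were among the data used here. The comparison asks which hippocampal transcripts differed once the FKBP1b transgene was present. All animals were male F344 rats that had been through water maze training, and each array carried RNA from the dorsal hippocampus of 1 rat. ST and AC rats were 21 months old, as were the 6 long-term FKBP1b rats (LT), and the 6 young controls (YC) were 5 to 6 months old.

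Both vectors were AAV2/9, drove their insert from the CaMKII promoter, which is active in excitatory neurons, and were placed bilaterally in CA1 at 2 µl per side. The eGFP vector was given at 1.86e13 and the FKBP1b vector at 1.99e12 genome copies per ml, a 9.35-fold difference in titer. The sample labels place the AC and ST injections at 18 months, 3 months before the end, whereas the design text places AC at 13 months and ST at 19 months. Transgene, titer and, if the design text holds, time since injection therefore cannot be told apart. There was no uninjected aged group, and the YC rats, called sham in the labels, received no injection according to the methods. ST and LT rats were chosen for the arrays because their measured FKBP1b lay above the median of their parent groups, while AC rats were taken at random.

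FKBP1b, the protein also called FKBP12.6, is a small immunophilin that binds the ryanodine receptor, the channel that releases calcium from the endoplasmic reticulum, and keeps it from leaking. Its close relative FKBP1a (FKBP12) binds the same family of channels and, together with rapamycin, mTOR. Aged CA1 neurons are known for enlarged calcium transients and a larger calcium-dependent afterhyperpolarization, which is why the vector was aimed at these cells.

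Signal is given in unlogged RMA units, the summary of a probe set's brightness after normalization between arrays, and differences are log2 ST minus AC from limma. A gene was tested where its probe set carried 1 gene symbol and reached a signal of 40 on at least 4 arrays, which left 13339 probe sets for 12604 genes. Neuronal transcripts were abundant on every array of both groups, with Camk2a at 6330 to 7850 in AC and 7461 to 7779 in ST. However, 3 of the AC arrays stood apart. AC 3 and AC 4 carried choroid plexus RNA, with transthyretin (Ttr) at 14549 and 16411 against 363 to 694 on AC 1, 2 and 5 and 116 to 493 in ST. AC 5 read 580 for Wfs1, a marker of CA1 pyramidal cells, against 2568 to 2996 on the other AC arrays and 2490 to 2925 in ST. It also read 333 for Prox1, a marker of dentate granule cells, against 741 to 950, and 1280 for the microglial receptor Cx3cr1 against 699 to 795. Camk2a was also lowest on AC 5, at 6330 against 7240 to 7850 on AC 1 to 4. Other neuronal markers went the opposite way on AC 5. The CA1 gene Fibcd1 read 905 there against 565 to 670, the calcium buffer Calb1 834 against 689 to 775, and the synaptic gene Snap25 11548 against 10548 to 11079. AC 5 also had the lowest RNA integrity number of the 11 arrays, 8.9 against 9.3 to 9.8. With that number as a covariate, 1147 probe sets had an unadjusted p under 0.05 in ST against AC, and 1310 without it. In whole tissue, fewer cells of a type and less RNA per cell cannot be told apart. Of the 90 genes given below with a value and an unadjusted p under 0.05, 61 had a log2 difference over 1.5 times smaller without AC 3, 4 and 5, and 2 of these changed sign. That number was 16 without AC 5, 23 without the 4 choroid plexus-rich arrays (AC 3 and 4 with LT 2 and 5), and 0 without ST 2.

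Fkbp1b had the smallest p-value of all probe sets tested. Its signal was 458, 379, 374, 364 and 428 on AC 1 to 5, and 427 to 881 with a median of 726 in ST. The array labelled ST replicate 2, at 427, lay within the AC range, and the other ST arrays, from 641, lay over every AC array. The log2 difference was 0.76 (SE 0.13, n = 6 and 5, limma adjusted p = 0.0851), and an exact two-sided permutation test over the 11 arrays gave p = 0.00866, where 0.00216 is the smallest p the 462 divisions allow. Without ST 2 the difference was 0.90 with a limma adjusted p of 6.95e-05. ST 2 was the lowest ST array for this gene, so leaving it out raises the difference, and this p is no separate test. The study's text holds that the array has no probe set for this gene, whereas the platform annotation used here assigns it one. Whether its probes match the vector insert was not tested, so the signal cannot be divided between vector and native transcript. Because ST rats were picked on their FKBP1b, this difference and its p-values describe the choice of animals as well as the vector. YC arrays read 353 to 411 and LT arrays 843 to 1217.

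**Figure D1:**
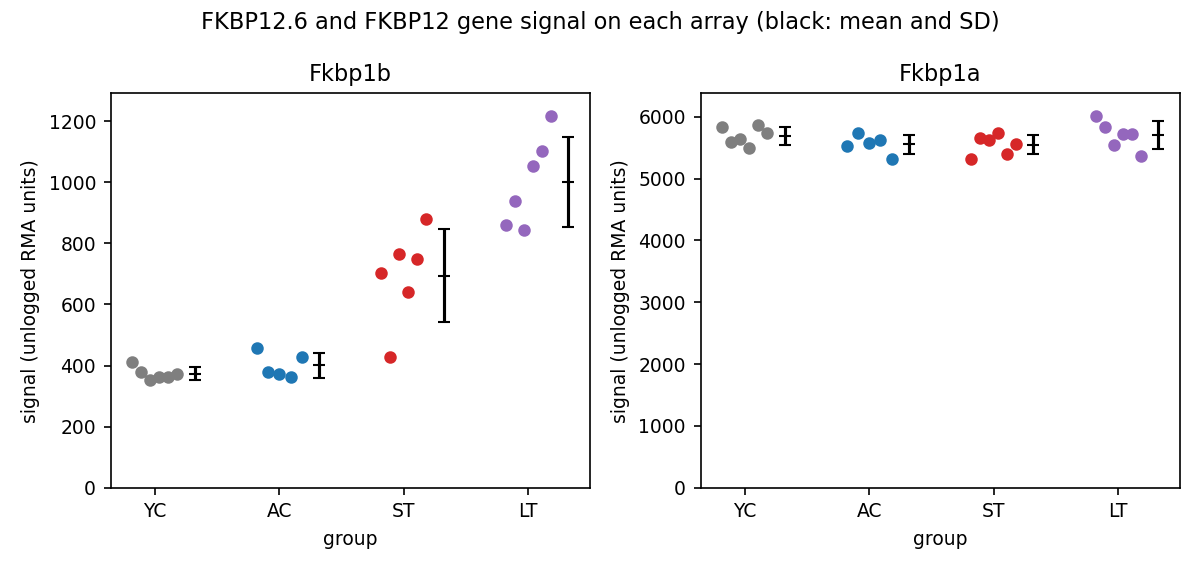
Signal of Fkbp1b (left) and Fkbp1a (right) on each of the 23 arrays by group, in unlogged RMA units, with the mean and SD in black. Fkbp1b on the array ST 2 (427) sat among the AC arrays (364 to 458), whereas Fkbp1a overlapped in all groups.

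The other FK506-binding proteins showed no such separation. Fkbp1a read 5309 to 5729 in AC and 5323 to 5741 in ST, a log2 difference of -0.0014 with a 95% confidence interval from -0.07 to 0.06. Of 15 family members tested, 2 were higher in ST at unadjusted p under 0.05, Fkbp1b and the HSP90 co-chaperone Fkbp4 (0.08, SE 0.04), where 4.91% of all probe sets were higher and 4.91% lower. None was lower, and the family median was 0.00 against 0.01 over all probe sets.

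Over the whole array, no probe set passed an adjusted p of 0.05 in limma, and 1310 of 13339 (9.82%) had an unadjusted p under 0.05, 655 higher and 655 lower in ST. The methods' own test, analysis of variance followed by Fisher's protected LSD, gave 813 at its unadjusted threshold and also 0 after adjustment. The limma adjusted p of a probe set at an unadjusted p of 0.05 was 0.508, so the genes below are a ranking and not calls. In counts of list members, higher and lower mean an unadjusted limma p under 0.05. Of all 13339 probe sets, 7559 lay above 0 and 5780 below, which is the background for counts of members above or below 0. Every ST array lay above every AC array for 26 probe sets (0.195%) and below for 42 (0.315%), 0.51% in all. For each direction, only 1 of the 462 divisions of the arrays gives such separation, a chance share of 0.00216 of probe sets. The share above was slightly under this and the share below somewhat over it, an excess that was not tested. Separate arrays are therefore used below to describe genes, and do not by themselves set a gene apart from chance. Leaving out AC 1 gave 65 probe sets at an adjusted p under 0.05, led by Pecam1, and leaving out AC 2 gave 4, Adm, Tead1, Grem1 and Fn1. With ST 2 left out, Fkbp1b alone passed, in a fit that lacks its lowest ST value. Without AC 3, 4 and 5 there were 455 probe sets at unadjusted p under 0.05, of which 160 were shared with the 1310 in the same direction.

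**Figure D2:**
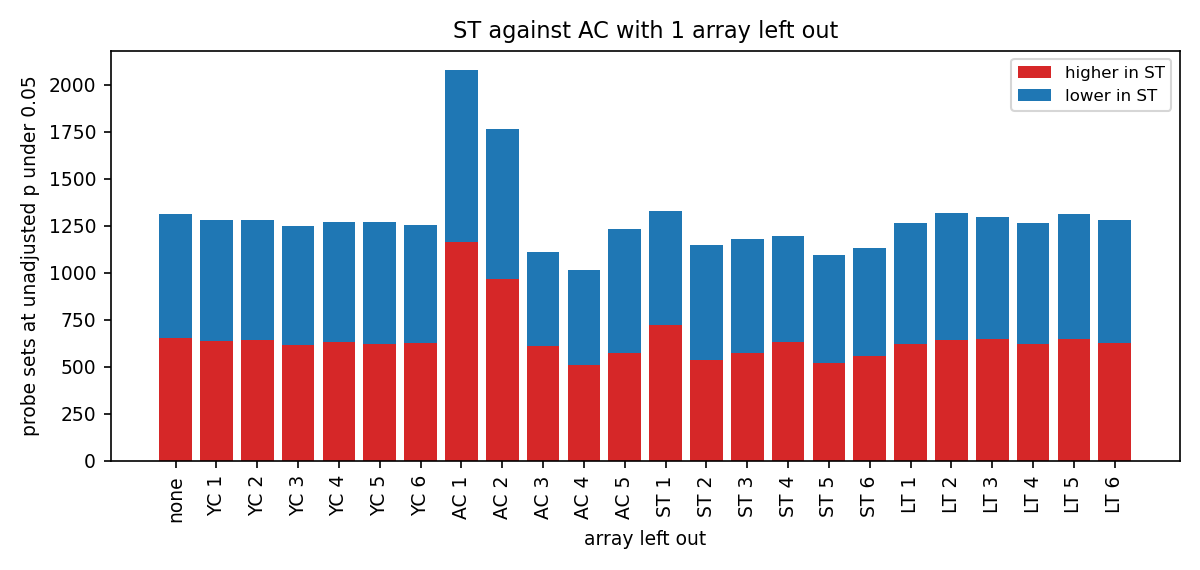
Number of probe sets at unadjusted p under 0.05 in ST against AC when 1 array is left out, split into higher (red) and lower (blue) in ST; "none" is the fit with all 23 arrays. The count ran from 1013 without AC 4 to 2077 without AC 1.

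Among genes with separate arrays, those higher in ST differed by small amounts. Dusp13b, a dual-specificity phosphatase gene, read 51, 48, 45, 48 and 51 on AC 1 to 5 and 56 to 70 with a median of 62 in ST. The difference was 0.35 (SE 0.07, limma adjusted p = 0.157), and 0.33 (SE 0.10) with AC 1 and 2 alone as controls. Nr4a2 (Nurr1), an orphan nuclear receptor induced by neuronal activity and linked to hippocampal memory, read 1161, 1134, 998, 879 and 794 in AC and 1194 to 1299 with a median of 1266 in ST. All 6 ST arrays lay above AC 1, the highest AC array, and the difference of 0.35 (SE 0.09) was 0.13 (SE 0.09) against AC 1 and 2 alone.

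The other higher genes of that kind had log2 differences from 0.08 to 0.49. They included Emc8, a subunit of the complex that inserts membrane proteins into the endoplasmic reticulum (322, 329, 317, 308 and 325 in AC, 336 to 378 with a median of 357.5 in ST, difference 0.15). Zdhhc2, a palmitoyltransferase that acts on the postsynaptic scaffold PSD-95, read 800, 801, 807, 792 and 759 in AC and 821 to 924 with a median of 868.5 in ST, a difference of 0.14. Nkiras1, an inhibitor of NF-kB signaling, was higher by 0.13 and Dnajc7, an HSP70 and HSP90 co-chaperone, by 0.08. Crb1, Ankrd49, Sbno1, Zc4h2 and the zinc finger gene Zfp39 differed by 0.21, 0.17, 0.12, 0.11 and 0.17. Rtp3 differed by 0.49 at a low signal, with 30 to 55 in AC and 56 to 71 in ST.

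Among genes lower in ST, Mov10, an RNA helicase that restrains retroelements and takes part in small RNA silencing, had the smallest p. Its signal was 171, 181, 170, 180 and 180 in AC and 135 to 157 with a median of 149.5 in ST. The AC arrays lay close together and all above the ST arrays, with a difference of -0.25 (SE 0.05, limma adjusted p = 0.157) that was -0.25 (SE 0.07) against AC 1 and 2 alone. Fmo1, a flavin-dependent monooxygenase, read 154, 154, 145, 145 and 134 in AC and 105 to 121 with a median of 116.5 in ST, a difference of -0.35 (SE 0.07). It too was as large against AC 1 and 2 alone, at -0.42 (SE 0.10).

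Several other lower genes encode receptors and ligands of inflammation and vessels. The interleukin 1 receptor Il1r1 read 109, 110, 181, 211 and 145 in AC and 90 to 106 with a median of 99 in ST. AC 3 and 4 were the highest and AC 1 and 2 lay within 4 units of the highest ST array. The oncostatin M receptor Osmr read 163, 172, 181, 185 and 205 in AC and 142 to 161 with a median of 144.5 in ST, a difference of -0.29 (SE 0.06), and the Notch ligand Jag1 differed by -0.17 (SE 0.04). Angpt2, an angiopoietin that loosens endothelial junctions, read 73, 86, 211, 221 and 98 in AC and 64 to 70 with a median of 68 in ST, and AC 3 and 4 carried most of its difference of -0.87. Dmc1, the meiotic recombinase gene, read 74, 79, 72, 90 and 91 in AC and 47 to 69 with a median of 58 in ST, a difference of -0.49 (SE 0.11). Drc1 and Flacc1, genes of motile cilia and their surroundings, differed by -0.37 and -0.36, and Aifm3, P2rx6 and Prrg4 by -0.27, -0.35 and -0.38.

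**Figure D3:**
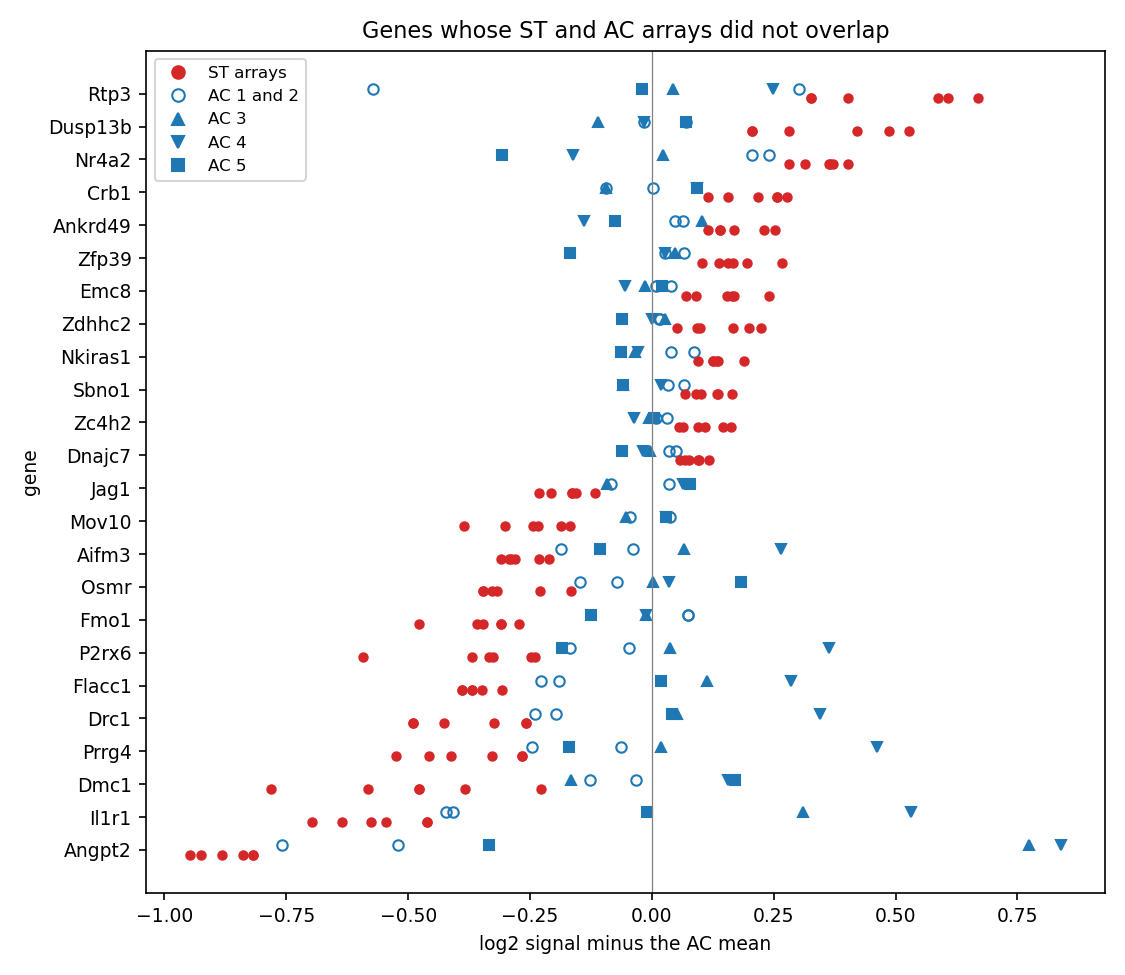
The 24 genes with separate ST and AC arrays and the smallest p-values, 12 higher and 12 lower in ST. Such separation also arises by chance, in 1 of 462 divisions of the arrays for each direction. The x axis is log2 signal minus the AC mean of the gene. ST arrays are red, AC 1 and 2 open blue, and AC 3, 4 and 5 filled blue. The AC arrays lay close together for Mov10 and Fmo1 and far apart for Angpt2 and Il1r1.

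The cytoskeletal genes that the study named stood slightly higher in ST. Of 39 genes that the study named in this category, 35 were tested and 34 lay above 0, with 17 (48.6%) at unadjusted p under 0.05, all higher, and a median of 0.09 against 0.01 over all probe sets. The study chose these genes on the same samples for a lower level with age that FKBP1b offset, so the list is not independent evidence of its direction. Without AC 3, 4 and 5 the count was 4 of 35, 33 members still lay above 0 and the median was 0.06, where 1.8% of all probe sets were higher.

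Members differed by small amounts with narrow spreads. Septin7, a core septin of dendritic branch points, read 2024, 2210, 2038, 2236 and 2107 in AC and 2205 to 2389 with a median of 2267 in ST. AC 2 and 4 overlapped the ST arrays, and the difference of 0.11 (SE 0.03, limma adjusted p = 0.337) was 0.11 against AC 1 and 2 alone. Spdl1 (Spindly), an adaptor of the dynein motor, read 73, 77, 77, 76 and 83 in AC and 79 to 98 with a median of 89 in ST, a difference of 0.21 (SE 0.05) that was 0.25 against AC 1 and 2. Ppp2ca, the catalytic subunit of protein phosphatase 2A, read 3890, 3794, 3706, 3821 and 3598 in AC and 3892 to 3980 with a median of 3956 in ST, a difference of 0.07. Gephyrin (Gphn), the scaffold of inhibitory synapses, differed by 0.13 (SE 0.04), but by 0.01 against AC 1 and 2 alone. Septin4 (0.25), the profilin Pfn2 (0.08), the kinesin-associated Kifap3 (0.07), the dynactin subunit Actr1a (0.11) and adducin Add1 (0.07) also had unadjusted p under 0.05. Keratins on the list were read at low signal, such as Krt17 at 57, 58, 56, 44 and 53 in AC and 57 to 66 with a median of 62 in ST (0.21).

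Broader cytoskeletal lists, drawn up from gene function but with earlier results of these data known, were nearer the background than the study's list. Of 55 tubulins, motors and microtubule proteins, 4 (7.27%) were higher and 0 lower, with a median of 0.03. The count was 1 and the median 0.02 without AC 3, 4 and 5, and without the 4 choroid plexus-rich arrays 3 were higher and 2 lower. Stathmin (Stmn1), which destabilizes microtubules, led them at 0.18 (SE 0.06), or 0.10 without AC 3, 4 and 5. Of 58 septins and actin regulators, 8 (13.8%) were higher and 4 (6.9%) lower, where 4.91% of all probe sets were higher and 4.91% lower. The higher count was 15 without AC 1 and 5 without AC 4 or AC 5. There were 2 higher and 0 lower without AC 3, 4 and 5. Tropomodulin Tmod1 was among the higher (0.13, or 0.04 without AC 3, 4 and 5) and tropomyosin Tpm4 among the lower (-0.26, but 0.0052 without AC 3, 4 and 5).

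Calcium genes were mixed in direction. Of 31 genes of intracellular calcium release and uptake, the process FKBP1b acts on, 1 had an unadjusted p under 0.05, the plasma membrane store-operated channel Orai1 (-0.09, SE 0.03, or -0.02 without AC 3, 4 and 5). The ryanodine receptor gene Ryr3 read 682, 674, 587, 594 and 693 in AC and 567 to 647 with a median of 600.5 in ST, and these ranges overlapped. Of 28 voltage-gated channels and extrusion genes, the calcium pump Atp2b1 was higher (0.14), and the pump Atp2b3 (-0.16) and the exchanger Slc24a4 (-0.14) were lower. Atp2b1 differed by 0.04 (SE 0.04) without AC 5, and Atp2b3 by -0.03 (SE 0.04) without the choroid plexus-rich arrays. Slc24a4 differed by -0.14 without AC 3, 4 and 5 as well, where it was the only one of the 28 at unadjusted p under 0.05 and the list median was -0.04 against 0.04 with all arrays.

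Of 31 genes for calmodulin, calcineurin, calpain and CaM kinases, 5 were higher and 1 lower. Capns1, the regulatory subunit of calpain, read 2795, 2785, 2637, 2806 and 2753 in AC and 2864 to 3018 with a median of 2919 in ST, so that every ST array lay above every AC array, by 0.09 (SE 0.03). Calmodulin Calm2 (0.07) and the calcineurin inhibitor Rcan1 (0.10, or 0.05 without AC 5) were higher and the kinase Camk1 was lower (-0.13, or -0.08 without AC 5). The higher count ranged from 1 without AC 5 or ST 6 to 13 without AC 1, and without AC 3, 4 and 5 none of the 31 had an unadjusted p under 0.05. The 11 calcium genes that the study named, again on these samples, had 3 higher and 4 lower. S100a11 and S100a6, small calcium-binding proteins found mainly in glia and vessels, were the lower ones beside Orai1 and Camk1. S100a11 read 250, 200, 391, 420 and 384 in AC and 181 to 274 with a median of 221 in ST. AC 3, 4 and 5 lay above every ST array and AC 1 and 2 inside the ST range, for a difference of -0.53.

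Genes of the neuronal response to calcium and activity depended on which AC arrays were used. Of 42 activity-induced genes, 4 were higher and 1 lower, 31 lay above 0 and the median was 0.05. Without AC 5 the median was 0.01, and without AC 3, 4 and 5 there were 0 higher and 1 lower, 20 lay above 0 and the median was -0.0088. Beside Nr4a2, the neurotrophin Bdnf read 212, 168, 161, 171 and 131 in AC and 182 to 218 with a median of 208.5 in ST. AC 1 lay inside the ST range and the other 4 AC arrays below it, a difference of 0.30 (SE 0.10, limma adjusted p = 0.363) that was 0.12 (SE 0.12) against AC 1 and 2. Prostaglandin synthase Ptgs2 (0.20) and the ERK phosphatase Dusp4 (0.19) were the other higher members, at 0.13 and 0.08 without AC 5. The immediate early gene Ier2 was lower (-0.11), and by -0.13 without AC 3, 4 and 5. Neurotensin (Nts) had the largest positive difference after Fkbp1b among probe sets at unadjusted p under 0.05, 0.73 (SE 0.30). It read 400, 505, 462, 303 and 87 in AC and 356 to 636 with a median of 518.5 in ST, and 87 on AC 5 was far below the other 10 arrays. Without AC 5 its difference was 0.28 (SE 0.17).

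Synaptic machinery lay near the background. Of 40 glutamate receptor and postsynaptic scaffold genes 0 were higher and 1 was lower, Shank2 (-0.14), with 4 lower without the choroid plexus-rich arrays and 0 without AC 3, 4 and 5. Of 52 synaptic vesicle genes 3 were higher, led by rabphilin Rph3a (0.25, or 0.03 without AC 3, 4 and 5), and 1 lower. The higher count was 5 without AC 5 and 0 without AC 3, 4 and 5. Of 30 GABA synapse genes 3 were higher and 1 lower, and without AC 3, 4 and 5 there were 0 and 1. The receptor subunits Gabrb2 (0.18) and Gabrd (0.15) were among the higher, both at 0.08 without AC 5, and Gabrb2 was -0.048 without AC 3, 4 and 5. The list for mTOR, the kinase that FKBP proteins bind in the presence of rapamycin, had 0 of 30 members at unadjusted p under 0.05 in limma and also 0 by the analysis of variance. Without the choroid plexus-rich arrays 4 of the 30 (13.3%) were lower, where 4.3% of all probe sets were, and without AC 3, 4 and 5 there were again 0.

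Oligodendrocyte genes stood higher in ST, most of all against AC 5. Of 38 tested, 34 lay above 0 and 14 were higher at unadjusted p under 0.05 (1 was lower), with a median of 0.11. Sox10, the transcription factor of the lineage, read 350, 346, 302, 319 and 292 in AC and 339 to 377 with a median of 370 in ST. AC 1 and 2 overlapped the ST arrays while AC 3, 4 and 5 lay below them all. Ermin (Ermn), a cytoskeletal protein of mature myelin, read 2565, 2636, 2320, 2303 and 1593 in AC and 2481 to 2854 with a median of 2702 in ST, with AC 5 far below. The count of higher members was 22 without AC 2 and 7 without AC 4, without ST 2 or without ST 6. Without AC 5 the count was 4 higher and 2 lower and the median 0.04, and without AC 3, 4 and 5 there were 0 and the median was -0.01. Pdgfra, the receptor of oligodendrocyte precursors, was the lower member (-0.19), and it also belongs to fibroblasts.

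Microglial and complement genes stood lower in ST, again with AC 5. All 18 complement genes tested lay below 0, 7 of them at unadjusted p under 0.05, with a median of -0.16. C1qa, a chain of the initiating complement factor, read 619, 694, 705, 634 and 1434 in AC and 588 to 642 with a median of 616 in ST, and C1qc read 207, 203, 232, 241 and 640 in AC and 179 to 209 with a median of 194 in ST. The protease C1r, by contrast, was spread over the AC arrays at 411, 372, 417, 457 and 461, with 348 to 395 with a median of 362 in ST, a difference of -0.20 (SE 0.05). Without AC 5, 13 of the 18 lay below 0 and 5 above, 3 were lower and the median was -0.07. Without AC 3, 4 and 5, 13 again lay below 0, 1 was lower and the median was -0.02. Without ST 5, 4 were lower. Of 36 microglial genes 3 were lower and 0 higher, with a median of -0.09. Without AC 5 the median was 0.07, with 5 higher and 1 lower, whereas without ST 2 it was -0.14, with 7 lower. Without AC 3, 4 and 5 the microglial median was 0.06, with 2 higher and 0 lower. ST 2 had the highest microglial score in ST, 0.37 log2 units above the series mean against 0.88 on AC 5 and 0.08 or less on the other 9 arrays.

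**Figure D4:**
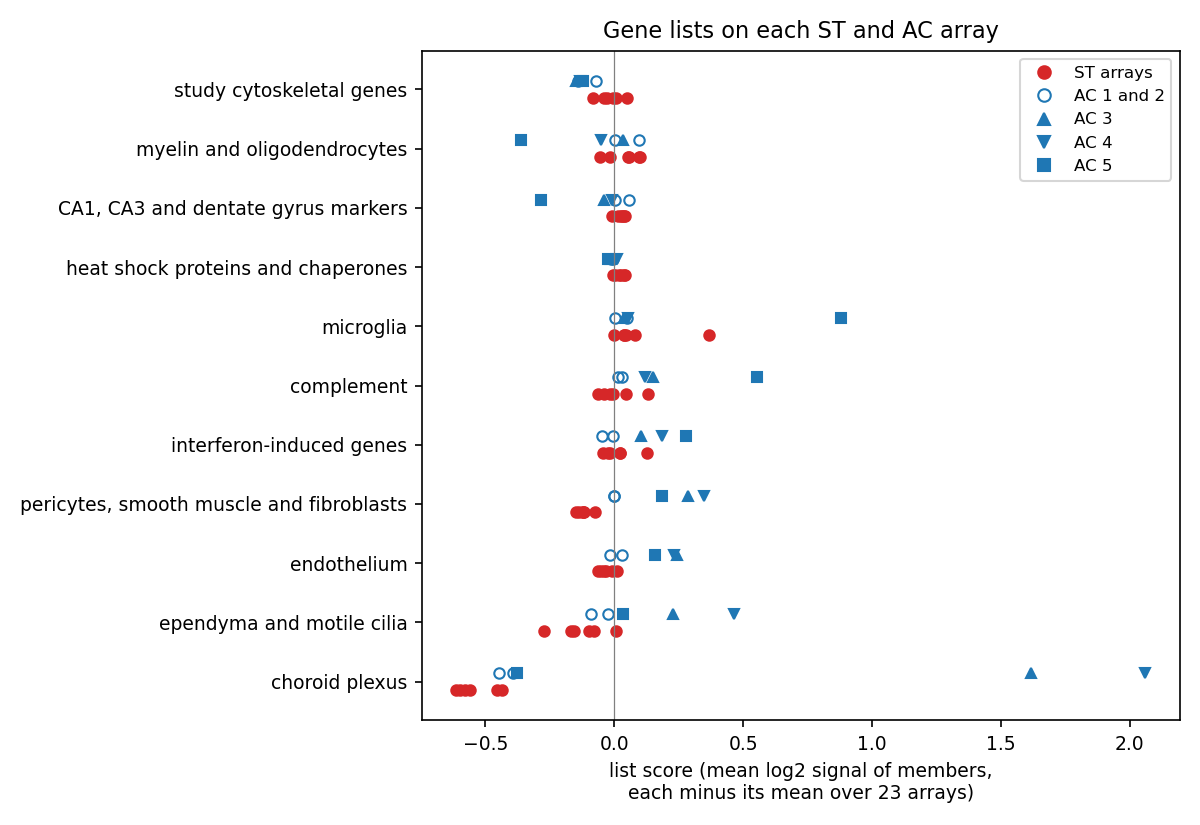
Score of each of 11 gene lists on every ST (red) and AC (blue) array, the mean over members of log2 signal minus the member's mean over 23 arrays. AC 3 and 4 stood apart for choroid plexus genes (1.62 and 2.06). AC 5 stood apart for microglia (0.88) and for the list of CA1, CA3 and dentate gyrus markers (-0.28). All 6 ST arrays lay below all AC arrays for the pericyte, smooth muscle and fibroblast list.

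Astrocyte genes went both ways, 3 higher and 7 lower of 33, with 4 lower without AC 5 and 1 lower and 0 higher without AC 3, 4 and 5. The lower ones included genes of the reactive state. Vimentin (Vim) read 1003, 1042, 1339, 1308 and 1457 in AC and 788 to 1094 with a median of 931 in ST, and ceruloplasmin (Cp) 201, 211, 266, 248 and 553 in AC and 149 to 221 with a median of 193 in ST, a difference of -0.58 (SE 0.18). AC 3, 4 and 5 were the 3 highest arrays for both. Gfap, of the same list, did not go this way. It read 2592, 2663, 2519, 2651 and 3548 in AC and 2414 to 2941 with a median of 2818 in ST. S100b, a calcium-binding protein of astrocytes and oligodendrocytes, was higher on every ST array, at 2062, 2036, 1953, 2020 and 2069 in AC and 2097 to 2151 with a median of 2122 in ST (0.07, SE 0.02).

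Of 47 interferon-induced genes, 8 (17%) were lower and 0 higher. The antiviral membrane proteins Ifitm1, Ifitm2 and Ifitm3 differed by -0.45, -0.36 and -0.47. Ifitm3 read 282, 271, 434, 446 and 546 in AC and 253 to 302 with a median of 276 in ST, and AC 1 and 2 lay inside the ST range. Its difference against AC 1 and 2 alone was -0.01 (SE 0.08). Mov10, of the same list, kept its difference there, as given above. Without AC 3, 4 and 5 the list had 1 lower and 2 higher members and a median of 0.04.

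Many interferon-induced genes share a promoter element, and the promoters of 2 members with lower values are shown for it. The core of the interferon-stimulated response element, searched as 2 copies of GAAA set 2 bases apart on either strand, occurred in 22 of the 36 members with a promoter in RefSeq (250 bases before to 50 after the start), against 3.92% of all 33469 promoters of that length. A member counted where any of its promoters matched, whereas the 3.92% is a share of single promoters, so the 2 shares are in unlike units. The promoters of Ifitm3 (GRCr8 chr1:205541709-205542008, minus strand) and Ifitm2 (GRCr8 chr1:205482299-205482598, minus strand) each held 1 match, in capitals, beginning 44 and 33 bases before the start. Mov10, the lower member with the smallest p, had a promoter without a match, and Ifitm1 had no promoter entry. A match is a description of these letters and shows no binding.
Ifitm3: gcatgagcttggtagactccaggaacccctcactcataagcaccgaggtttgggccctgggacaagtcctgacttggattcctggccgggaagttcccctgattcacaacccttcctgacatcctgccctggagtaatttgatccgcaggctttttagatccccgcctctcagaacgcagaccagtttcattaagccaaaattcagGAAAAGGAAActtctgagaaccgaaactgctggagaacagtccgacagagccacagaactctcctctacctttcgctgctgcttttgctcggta
Ifitm2: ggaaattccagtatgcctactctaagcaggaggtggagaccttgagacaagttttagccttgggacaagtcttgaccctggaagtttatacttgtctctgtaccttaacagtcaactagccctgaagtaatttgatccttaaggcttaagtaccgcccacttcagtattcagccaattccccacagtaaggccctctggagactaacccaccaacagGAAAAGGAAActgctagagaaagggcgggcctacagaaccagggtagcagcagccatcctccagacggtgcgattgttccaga

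Vascular and meningeal genes stood lower in ST as a group. Of 39 endothelial genes 18 were lower and 0 higher, with a median of -0.15. Pecam1, the adhesion molecule of endothelial junctions, read 111, 133, 176, 178 and 190 in AC and 103 to 115 with a median of 109.5 in ST, a difference of -0.50 (SE 0.10, limma adjusted p = 0.205). The tight junction protein Cldn5 read 274, 270, 409, 331 and 352 in AC and 255 to 280 with a median of 265 in ST, and the VEGF receptor Flt1 differed by -0.22. For each of these 3 genes AC 1 lay inside the ST range. Without AC 3, 4 and 5 the endothelial list had 0 lower and 1 higher, and a median of -0.03.

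The list of pericyte, smooth muscle and fibroblast genes had 16 lower of 36, 0 higher and a median of -0.13. It is led by genes of the meningeal fibroblasts that cover the brain. Slc6a13, a GABA and taurine transporter, read 177, 159, 155, 152 and 132 in AC and 121 to 144 with a median of 128 in ST. AC 5, the lowest control, was the only AC array inside the ST range, and the difference of -0.25 (SE 0.06) was -0.37 (SE 0.08) against AC 1 and 2 alone. Aldh1a2, which makes retinoic acid, read 152, 137, 132, 115 and 132 in AC and 97 to 116 with a median of 108 in ST, a difference of -0.32 (SE 0.08), and -0.43 (SE 0.11) against AC 1 and 2. Fibromodulin (Fmod), a small proteoglycan of collagen fibrils, read 68, 106, 96, 97 and 94 in AC and 48 to 68 with a median of 58.5 in ST, a difference of -0.67. For this list AC 1 and 2 also stood apart from ST: without AC 3, 4 and 5, 5 of 36 were lower and the median was -0.07, where 1.61% of all probe sets were lower. How much meninges or vessel each dissection held was not measured, and its part in these differences was not tested.

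Choroid plexus and ependyma showed the largest differences and the clearest tie to single arrays. Of 34 choroid plexus genes 21 were lower, with a median of -0.68. Ttr (-3.23), the inward rectifier Kcnj13 (-3.01) and the aging-related factor Klotho (Kl, -2.32) led them. Kl read 56, 54, 1603, 2347 and 56 in AC and 41 to 51 with a median of 45.5 in ST. The 4 arrays with a choroid plexus score over 0.5 were AC 3, AC 4, LT 2 and LT 5, and without them 4 members were lower and 1 higher, with a median of -0.08. Without AC 3 or AC 4 in turn, 6 and 5 members were lower. Of 27 genes of motile cilia, 15 were lower and 0 higher, among them the radial spoke gene Rsph9 (-0.41) and the tektin Tekt4 (-0.24). Tekt4 read 119, 118, 137, 141 and 130 in AC and 99 to 116 with a median of 109 in ST, with all AC arrays above ST, and 8 members were lower without AC 4 and 3 without those 4 arrays. Hemoglobin Hbb, from blood, read 212, 167, 1479, 1450 and 216 in AC and 151 to 187 with a median of 181 in ST.

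Matrix and growth factor genes were mixed in direction. Fibronectin (Fn1) read 352, 370, 825, 770 and 608 in AC and 321 to 361 with a median of 337 in ST, a difference of -0.71 (SE 0.16), with AC 3, 4 and 5 above the other arrays. Of 38 matrix proteases and inhibitors 9 were lower (4 without AC 4, 5 without ST 6), among them Mmp14 (-0.59) and Mmp2 (-0.56), and 2 higher, among them Mmp23 (0.29). This became 0 lower and 1 higher without AC 3, 4 and 5, and Mmp2 then differed by -0.06. Of 25 genes of insulin-like growth factor and insulin signaling 3 were higher and 3 lower, or 1 and 0 without AC 3, 4 and 5. Igfbp4, which binds and holds back IGFs, read 184, 203, 219, 192 and 178 in AC and 214 to 259 with a median of 233 in ST, a difference of 0.27 (SE 0.06, limma adjusted p = 0.208), and 0.28 (SE 0.08) against AC 1 and 2. Gremlin (Grem1), a secreted BMP antagonist, read 101, 113, 87, 91 and 77 in AC and 109 to 128 with a median of 119.5 in ST, a difference of 0.35 (SE 0.08), and 0.15 (SE 0.08) against AC 1 and 2. Of 49 BMP and TGF-beta genes 6 were higher and 6 lower, or 0 and 3 without AC 3, 4 and 5.

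Housekeeping machinery differed little. Of 72 cytosolic ribosomal proteins 1 was higher and 1 lower, with a median of 0.00. Of 69 respiratory chain and ATP synthase subunits 1 was higher and 4 lower. These counts became 1 and 0, and 1 and 2, without AC 3, 4 and 5. Of 48 heat shock proteins and chaperones 39 lay above 0, where 7559 of all 13339 probe sets did. Of the 48, 4 (8.33%) were higher, where 4.91% of all probe sets were. These 4 were J-domain cochaperones: Dnajc7, Dnajc12 (0.12), Dnajc15 (0.11) and Dnajb4 (0.07). The list median of 0.03, against 0.01 over all probe sets, was the same to 2 decimals without AC 3, 4 and 5.

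**Figure D5:**
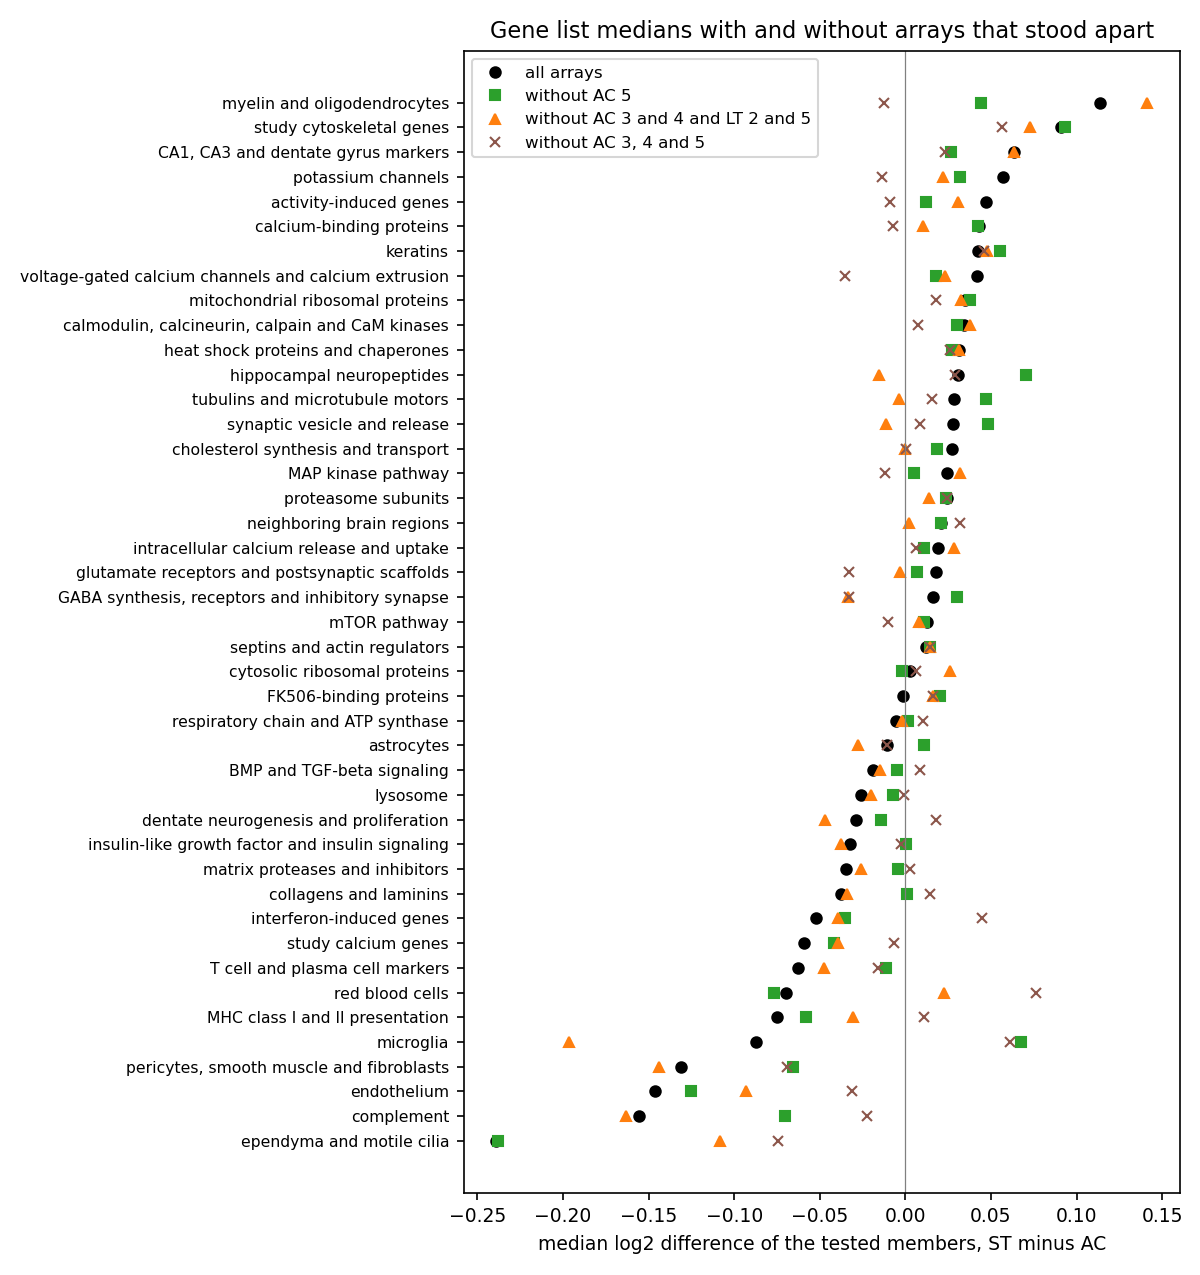
Median log2 difference, ST minus AC, of the tested members of 43 gene lists, with all arrays (black circles) and without arrays that stood apart; the choroid plexus list (-0.68) is left off the axis. Myelin, interferon and microglia medians changed sign without AC 3, 4 and 5, whereas study cytoskeletal genes, heat shock proteins and fibroblast genes did not. The study chose its cytoskeletal genes on these same samples, so the sign of that median is not independent evidence.

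ST and LT arrays shared no samples and could be tested against each other. The labels place injection at 18 months in ST and 12 months in LT, so age at injection and duration cannot be told apart. The groups also differed in Fkbp1b signal, and LT 2 and 5 carried choroid plexus RNA. In limma 1 of 13339 probe sets (0.0075%) passed an adjusted p of 0.05. It was Hrh1, the histamine H1 receptor of neurons and glia, at 522 to 605 in ST and 724 to 798 in LT, with no overlap, a log2 difference of -0.39 (SE 0.04, adjusted p = 2.79e-05). AC arrays read 525 to 581 and YC arrays 661 to 771, so ST lay with AC and LT with YC. Fkbp1b was lower in ST than in LT by 0.55 on the log2 scale (SE 0.12, limma adjusted p = 0.123). ST, LT and YC differences from AC rest on the same 5 AC arrays, so values are given side by side only. Mov10 differed from AC by -0.25 in ST and -0.14 in LT, Nr4a2 by 0.35 and 0.14, Igfbp4 by 0.27 and 0.22, and Pecam1 by -0.50 and -0.57. The YC means were 159 for Mov10, 1362 for Nr4a2, 222.5 for Igfbp4 and 94.7 for Pecam1.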

How the data were processed

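Dorsal hippocampal RNA of each rat was measured by the authors on 1 Affymetrix whole-transcript rat array (Rat Gene 1.0 ST). The deposited intensity values are unlogged RMA signals per transcript, made with Partek and RMA per the labels. Values over 2 SD from a group mean were treated as missing, which cannot occur in a group of 5, where no value can lie over 1.79 SD from the mean. Accordingly no AC value was blank, and 86 tested probe sets had a blank ST value. The deposited table of 29211 probe sets was log2 transformed here. Of these, 15307 had 1 gene symbol, 323 several and 13581 none, and 13339 that reached a signal of 40 on 4 or more arrays were tested. Limma 3.58.1 (R 4.3.3) was fitted over YC, AC, ST and LT without covariates, with Benjamini-Hochberg adjustment over all probe sets, and was tested on simulated data. For a gene with several probe sets, the one with the highest mean signal was used.

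Genes were named by rule: the 12 smallest p-values in each direction among unadjusted p under 0.05 with separate ST and AC arrays, the 5 largest differences in each direction, up to 4 genes of smallest p per list, the 8 smallest p in each direction for ST against LT, and Fkbp1b, Fkbp1a and genes the study named. Adm and Tead1 were named after their values were seen. Of 44 gene lists, members and lists were chosen with earlier results of these data known. Interferon response elements were searched in RefSeq promoters (GRCr8). The number of arrays limits the precision. RNA integrity was 9.52 ± 0.12 in ST (SD, n = 6) and 9.38 ± 0.34 in AC (SD, n = 5), with p = 0.435 by an exact two-sided permutation test. Deposited arrays were 1 per rat, so the spread is between rats. Alternatives covered normalization, filters, covariates, weights and left-out arrays.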

Additional observations from a re-analysis of the deposited data

Results flagged for a closer look

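AC 5 lay far from the other AC arrays, by Dixon's ratio, for 5 genes named above. It was the highest for C1qa (1434), C1qc (640) and Cp (553) and the lowest for Dnajb4 (772) and Zfp39 (460). The check covered 186 groups of values, and chance alone places about 1 group in 20 beyond this limit. Hrh1 differed between the 2 FKBP1b groups in a direct limma test, with a log2 ST minus LT difference of -0.39 (adjusted p = 2.79e-05, n = 6 and 6). Its cause was not tested.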

How the results depend on the processing

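The number of arrays and the spread of the AC group limit what could be called, since the median SD over probe sets was 0.11 in AC and 0.08 in ST on the log2 scale. Removing AC 3, 4 and 5 was chosen after seeing the data, and leaves 2 AC arrays.

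For ST against AC, the number of probe sets at an adjusted p under 0.05 was 0 with every alternative except single arrays left out, where it ran from 0 to 65. At unadjusted p under 0.05 it was 2145 of 23559 (9.10%) when all probe sets were tested, against 1310 of 13339 (9.82%) in the main fit. Of the same 13339 it was 813 by analysis of variance with Fisher's LSD and 849 with the 2 groups alone. It was 455 without AC 3, 4 and 5 and from 1013 to 2077 with 1 array left out. Equal array medians moved the split to 932 higher and 481 lower, or 66% higher, from 50%, and shifted the median of all probe sets from 0.01 to 0.03. The methods' analysis had 405 higher and 408 lower.

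Fkbp1b stood higher by 0.76, with p = 0.00866 in the exact permutation test, which is not adjusted for the other probe sets. Its limma adjusted p was 0.0851. ST rats were picked on their FKBP1b and AC rats at random, so neither p measures the vector alone. With 1 array left out its difference ran from 0.69 to 0.90. For ST against LT the count of 1 in 13339 became 113 in 23559 with all probe sets. It was 26 with array weights, 6 without AC 3, 4 and 5 and 3 without the 4 choroid plexus-rich arrays. The count was 2 with equal medians, the choroid plexus score or RNA integrity as a covariate, a signal minimum of 100, the 2 groups alone, or analysis of variance. It ran from 1 to 7 with 1 array left out.

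Fkbp1a, near 0 throughout, changed sign to 0.016 with equal medians, 0.014 with the choroid plexus score, 0.017 with quantile normalization, 0.0036 with the replicate block, 0.0078 without the choroid plexus-rich arrays, and from -0.018 to 0.011 with 1 array left out. Without AC 3, 4 and 5, the ST minus AC difference was -0.048 for Gabrb2, -0.013 for Hrh1 and 0.0052 for Tpm4. The Hrh1 value here is against AC and is not its ST minus LT difference. The replicate numbers did not pair the samples, as deviations of same-numbered ST and AC arrays correlated from -0.08 to 0.17 over genes. With that block, ST against AC had 693 higher and 595 lower probe sets at unadjusted p under 0.05 and 0 at adjusted p.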
